A study of Mus musculus with 3 samples.

Results

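The genes that still separate chemically induced astrocytes from brain astrocytes were described by setting one array of induced astrocytes (iAs) against one array of primary astrocytes (pAs), gene by gene. Every gene with a probe set that carries its symbol alone was taken, which gave 22180 genes from 23521 of the 41345 probe sets on the array, and probe sets of one gene were averaged. The iAs were mouse embryonic fibroblasts (MEFs) carrying a GFAP-GFP reporter, kept for 25 days with VCSTO, a mixture of valproic acid (V), CHIR99021 (C), SB-431542 (S), tranylcypromine (T) and OAC1 (O), and sorted for GFP. The pAs were cultured from the cortex of mice at postnatal day 2 and were neither reporter cells nor sorted as far as the sources state, and an array of MEFs from E13.5 embryos is given as background only. The labels repeat the compound treatment on all 3 samples, and its assignment to iAs alone follows the study's methods. The reporter is driven by a GFAP promoter, so the sort itself chose iAs for activity of that promoter, and strain, genotype of the pAs and number of animals are not given in the sources used here. Levels are log2 values after robust multi-array averaging (RMA), and a gene counted as higher or lower, meaning in iAs relative to pAs, at a difference of at least 1.5-fold, the fold used in the study. With 1 array per cell type there is no spread between samples, no difference carries a test, and every value below is a description of these 2 arrays. In bulk RNA, more cells of a type and more RNA per cell cannot be told apart.

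Of 22180 genes, 1923 reached at least 1.5 times the pA level in iAs (8.67%) and 2458 were lower by at least that fold (11.1%). At 2-fold the counts were 1105 (4.98%) and 1284 (5.79%), at 4-fold 432 and 414, and at 16-fold 83 and 57. The other 17799 genes lay within 1.5-fold (80.2%), the median difference was 0.00, and Pearson's correlation of the levels was 0.934 across genes, which are not independent replicates. Both arrays hold the same value for 26.2% of genes, and these genes are counted in each of those figures. Most measured members were lower in iAs among general astrocyte markers (44 of 57), genes of glutamate and GABA uptake and metabolism (12 of 22), genes of endfeet and gap junctions (15 of 21) and gliogenic transcription factors (26 of 34). Most were higher in iAs among genes of Schwann cells and the neural crest (20 of 31), calcium-binding proteins (13 of 23), general neuronal markers (21 of 39) and serpins (12 of 23). The shares of all genes, 8.67% higher and 11.1% lower, are the background for each list count here and below. Some lists share genes, so their counts are not independent. For example, Aqp4, Kcnj10 and Mlc1 are in the general marker and endfoot lists, and L1cam is in the Schwann cell and neuronal lists.

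Astrocytes of the brain take up glutamate and potassium that neurons release, move water at endfeet on blood vessels, store glycogen and pass lactate and glutamine to neurons. They arise from neural progenitors under gliogenic factors of the SOX and NFI families. Peripheral glia arise instead from the neural crest and depend on SOX10, and glia of the gut can make GFAP and S100B as well. Hox genes give cells of the trunk and limbs their position along the body, whereas the forebrain forms without them.

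Among genes for microRNAs (miRNAs), small RNAs that repress messengers through a seed at bases 2 to 8, the loci that differed most included those of miR-9, which is abundant in the brain, and of miR-196a, which is encoded within the Hox clusters. The mature sequences below, shown because they identify what each differing locus encodes, are from RefSeq (GRCm38.p6), 5′ to 3′, with the seed in capitals.
mmu-miR-9-5p: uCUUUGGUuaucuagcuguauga
mmu-miR-99a-5p: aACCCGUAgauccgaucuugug
mmu-miR-92b-3p: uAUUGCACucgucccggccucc
mmu-miR-196a-5p: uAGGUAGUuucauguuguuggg
mmu-miR-218-5p: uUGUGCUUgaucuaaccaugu
mmu-miR-27a-3p: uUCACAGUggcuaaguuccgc
The first 3 come from loci lower in iAs and the last 3 from loci higher in iAs, and no seed is shared between the 6.

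The mature miR-9-5p is encoded by 3 loci. Mir9-2, at chr13:83738821-83738843 on the plus strand, had the log2 levels 5.29 in iAs, 8.72 in pAs and 3.72 in MEFs and was at least 4.38-fold lower. Mir9-1, at chr3:88215613-88215635 on the plus strand, had 5.55 in iAs, 7.21 in pAs and 5.59 in MEFs and was at least 1.54-fold lower. Mir9-3, at chr7:79505279-79505301 on the plus strand, had 7.42 in iAs, 7.82 in pAs and 7.18 in MEFs, within 1.5-fold between the astrocyte types. Of the miR-9 loci 2 were therefore lower in iAs and the third differed by less than 1.5-fold. Here and below, "at least" marks a fold whose lower level lies under the median of its array, 6.59 in iAs, 6.57 in pAs and 6.53 in MEFs, and is counted from that median.

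Mir196a-1, at chr11:96265187-96265208 on the plus strand, went the other way, with 7.85 in iAs, 5.64 in pAs and 6.31 in MEFs, at least 2.43-fold higher in iAs, while Mir196a-2 on chromosome 15 lay below the median on all arrays. Mir218-2, which lies within Slit3, had 7.29 in iAs, 5.43 in pAs and 6.08 in MEFs and was at least 1.66-fold higher, and its host gene Slit3, a secreted axon guidance ligand, was 4.63-fold higher. Mir27a had 8.69 in iAs, 7.46 in pAs and 9.303 in MEFs and was 2.35-fold higher. Mir99a had 5.68 in iAs, 7.34 in pAs and 5.41 in MEFs and was at least 1.68-fold lower, and Mir92b had 8.41 in iAs, 9.64 in pAs and 8.34 in MEFs and was 2.34-fold lower. Of 478 miRNA genes measured, 33 were higher (6.90%) and 19 lower (3.97%) in iAs, both shares under those of all genes. The 6 shown were picked after their values were seen, from 14 that differed at least 2-fold with the higher level above its array's median. The probe sets lie on the genes of the precursors, and mature miRNAs were not measured.

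**Figure D1:**
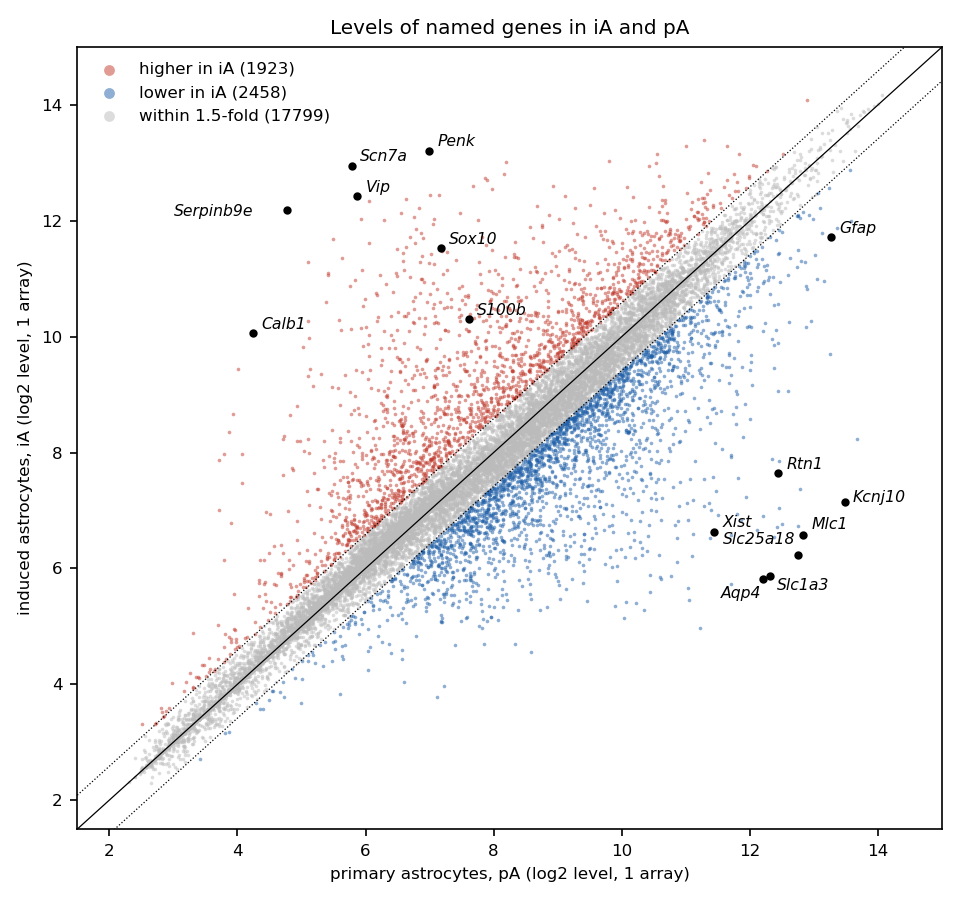
Log2 level of each of 22180 named genes in iAs (vertical axis) against pAs (horizontal axis), 1 array each. Red points are the 1923 genes at least 1.5-fold higher in iAs, blue points the 2458 lower and grey points the 17799 within 1.5-fold, dotted lines marking that fold and the solid line equal levels. The astrocyte genes Slc25a18, Slc1a3, Aqp4, Kcnj10 and Mlc1 sit at the lower right, and Serpinb9e, Scn7a, Vip and Penk at the upper left.

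The label of the induced cells was checked on 6 marker genes, and the 6 did not move together. Aqp4, the water channel of astrocyte endfeet, had the log2 levels 5.82 in iAs, 12.204 in pAs and 6.799 in MEFs and was at least 48.99-fold lower than in pAs. Slc1a3, which encodes the glutamate transporter GLAST, had 5.88 in iAs, 12.32 in pAs and 9.02 in MEFs and was at least 53.1-fold lower, so that its level in iAs was below that of the MEF array too. Mlc1, a membrane protein of astrocyte junctions at vessels, had 6.57 in iAs, 12.83 in pAs and 6.72 in MEFs, at least 75.8-fold lower, and Kcnj10, the potassium channel Kir4.1, had 7.14 in iAs, 13.48 in pAs and 7.46 in MEFs, 80.7-fold lower. These 4 markers were at or near the median of the iA array, and their levels there were at or below those of MEFs. Sox10, the transcription factor of peripheral glia and oligodendrocytes, went the other way at 11.53 in iAs, 7.18 in pAs and 7.91 in MEFs, 20.4-fold higher in iAs. S100b, a calcium-binding protein of astrocytes and Schwann cells, had 10.31 in iAs, 7.61 in pAs and 6.404 in MEFs and was 6.5-fold higher. Gfap, the glial filament whose promoter drives the sorted reporter, had 11.72 in iAs, 13.26 in pAs and 7.8000 in MEFs, 2.91-fold lower than in pAs and far above MEFs. The name iAs is kept here as the study's own, since 4 of the 6 markers stood at or near the median of the array in these cells. By real-time PCR the study found Slc1a2, Slc1a3, Aqp4 and Aldh1l1 raised in VCSTO-treated cells over MEFs. On these arrays none of those 4 was above MEFs, and the reason was not tested. The study also reports staining for S100B and ALDH1L1, demethylation of the Gfap promoter and glutamate uptake, which arrays do not measure.

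Among general markers of astrocytes, 44 of 57 measured were lower in iAs (77.2%, against 11.1% of all genes), 4 were higher and 9 lay within 1.5-fold, with a median difference of -1.75 against 0.00 for all genes. Slc25a18, a mitochondrial glutamate carrier, had 6.24 in iAs, 12.74 in pAs and 6.6004 in MEFs and was at least 71.3-fold lower. Slc39a12, a zinc transporter, had 5.46 in iAs, 11.05 in pAs and 5.49 in MEFs and was at least 21.97-fold lower. In both the level in iAs was that of MEFs, within 1.5-fold. Of the 44 lower genes, 19 had a MEF level within 1.5-fold of iAs, 14 were lower still in MEFs by at least 1.5-fold, 8 had a MEF level between the astrocyte types, 2 one within 1.5-fold of pAs and 1 one above both. The 14 with iAs partway between MEFs and pAs include Gfap, and the plot of astrocyte markers shows them in its right panel. Dio2, the deiodinase that activates thyroid hormone, was the marker furthest in the opposite direction, at 9.61 in iAs, 6.67 in pAs and 6.34 in MEFs and 7.68-fold higher in iAs, and Tril, an accessory protein of Toll-like receptors, had 9.81 in iAs, 7.09 in pAs and 8.86 in MEFs and was 6.59-fold higher. Dio2 has more than 1 probe set.

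**Figure D2:**
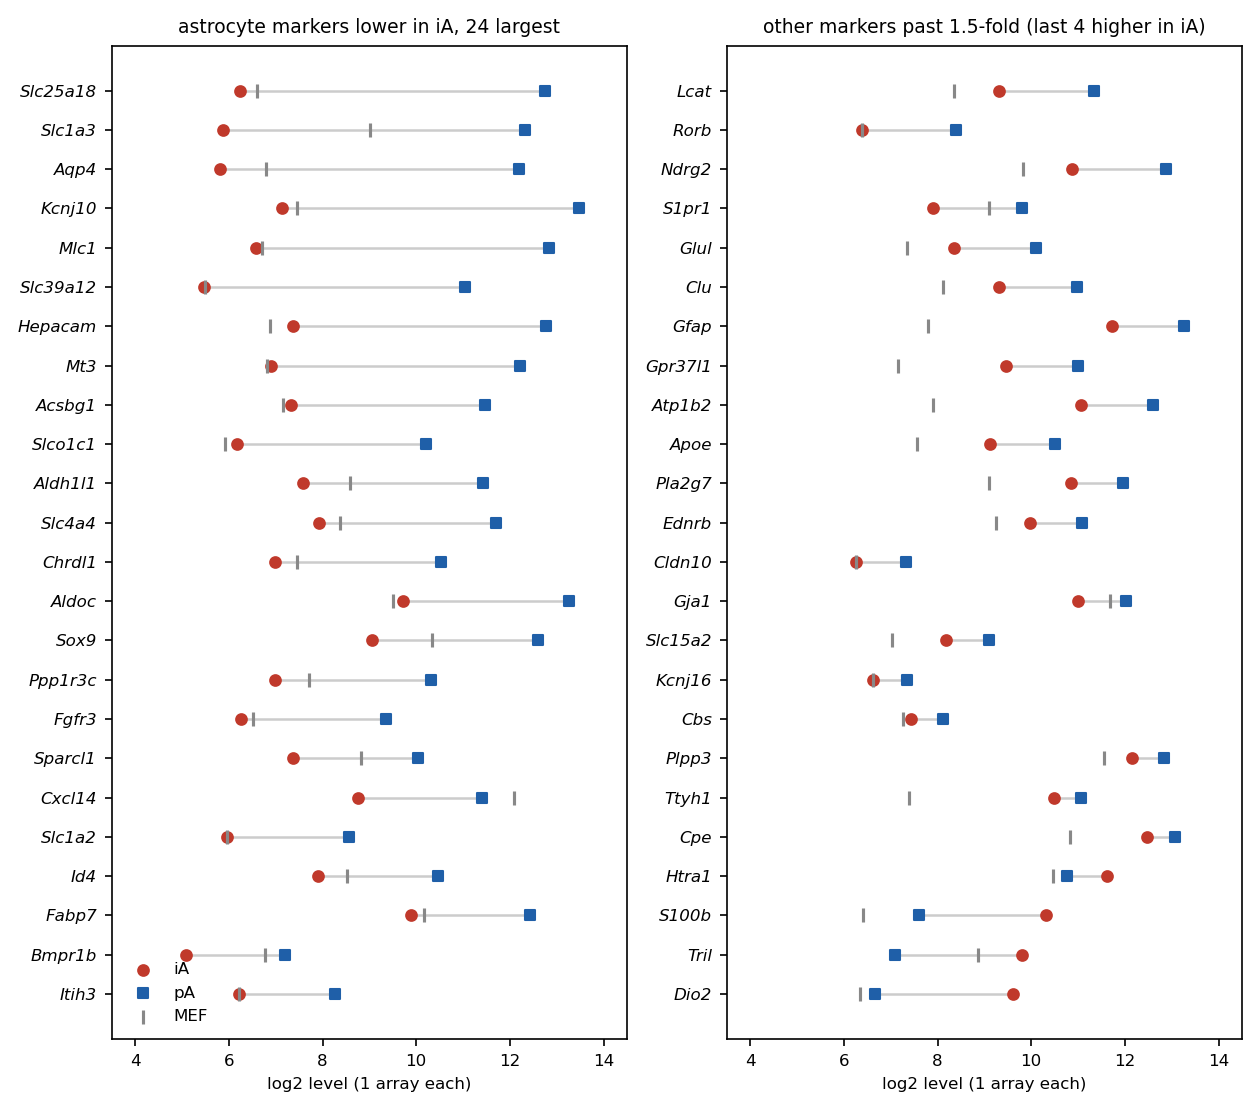
Log2 levels of the 48 general astrocyte markers that differed at least 1.5-fold, in iAs (red circles), pAs (blue squares) and MEFs (grey ticks), 1 array each, ordered by the difference with a line joining iAs and pAs. The left panel holds the 24 with the largest deficit in iAs, most of them with the iA circle on or left of the MEF tick. In the right panel many markers, Gfap among them, lie between MEFs and pAs, and the last 4 are higher in iAs.

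The uptake and metabolism of glutamate and GABA held 12 of 22 genes lower in iAs and 0 higher, with a median of -0.60. Slc38a3, the transporter that releases glutamine from astrocytes, had 7.04 in iAs, 12.46 in pAs and 6.68 in MEFs and was 42.7-fold lower. Slc38a1, a glutamine transporter, had 8.49 in iAs, 11.79 in pAs and 10.68 in MEFs and was 9.83-fold lower. Glul, the glutamine synthetase, stood at 8.36 in iAs, 10.11 in pAs and 7.36 in MEFs, 3.36-fold lower in iAs and above the MEF level, and has more than 1 probe set. Slc1a2, the glutamate transporter GLT-1, was at 5.96 in iAs, 8.57 in pAs and 5.96 in MEFs, at least 3.94-fold lower. Both astrocyte glutamate transporters were thus under the array median in iAs, whereas glutamine synthetase was not.

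Of 21 genes of endfeet and gap junctions, 15 were lower in iAs and 0 higher, with a median of -1.53. Hepacam, the adhesion partner of MLC1, had 7.36 in iAs, 12.78 in pAs and 6.88 in MEFs and was 42.7-fold lower. Car2, a carbonic anhydrase, had 5.601 in iAs, 10.44 in pAs and 7.16 in MEFs and was at least 14.43-fold lower, and Kcnk1, a potassium leak channel, had 6.83 in iAs, 11.03 in pAs and 7.74 in MEFs and was 18.4-fold lower. The junction itself differed less than these channels, Gja1, which encodes connexin 43, being 2.01-fold lower in iAs at 11.01 in iAs, 12.02 in pAs and 11.69 in MEFs, a gene picked here after its values were seen.

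Among glycolysis, lactate and glycogen genes 11 of 26 were lower and 2 higher, with a median of -0.17. Aldoc, the aldolase that marks astrocytes, had 9.71 in iAs, 13.26 in pAs and 9.49 in MEFs and was 11.7-fold lower, Ppp1r3c, a glycogen-targeting subunit of protein phosphatase, had 6.98 in iAs, 10.32 in pAs and 7.703 in MEFs and was 10.1-fold lower, and Ldhb, a lactate dehydrogenase subunit, had 8.41 in iAs, 11.22 in pAs and 8.55 in MEFs and was 7.04-fold lower. Pdk4, which restrains pyruvate dehydrogenase, went against the list at 12.15 in iAs, 11.197 in pAs and 8.26 in MEFs, 1.94-fold higher. Among serine, glycine and folate genes 9 of 18 were lower and 2 higher. Gldc, of the glycine cleavage system, had 6.58 in iAs, 11.71 in pAs and 7.11 in MEFs and was at least 34.7-fold lower, and Aldh1l1, a folate enzyme used as an astrocyte marker, had 7.58 in iAs, 11.42 in pAs and 8.58 in MEFs and was 14.3-fold lower. Mthfd1l, the mitochondrial formate-making enzyme, had 9.74 in iAs, 7.43 in pAs and 9.31 in MEFs and was 4.96-fold higher. The folate genes therefore did not share a direction.

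Factors through which astrocytes act on synapses were lower for 11 of 21 and higher for 3, with a median of -0.61. Chrdl1, a secreted antagonist of bone morphogenetic proteins (BMPs), had 6.98 in iAs, 10.54 in pAs and 7.47 in MEFs and was 11.7-fold lower. Sparcl1, or hevin, had 7.37 in iAs, 10.03 in pAs and 8.82 in MEFs and was 6.31-fold lower, and Gpc4, a glypican, had 9.69 in iAs, 11.67 in pAs and 10.77 in MEFs and was 3.94-fold lower. Gdnf, a growth factor for neurons that is also the ligand of RET, had 9.398 in iAs, 5.95 in pAs and 7.26 in MEFs and was at least 7.11-fold higher. Of 32 receptors and channels, 9 were lower and 5 higher. Gabrb1, a GABA receptor subunit, had 6.12 in iAs, 10.87 in pAs and 7.5004 in MEFs and was at least 19.4-fold lower, and P2rx7, an ATP-gated channel, had 10.65 in iAs, 7.96 in pAs and 7.14 in MEFs and was 6.45-fold higher.

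**Figure D3:**
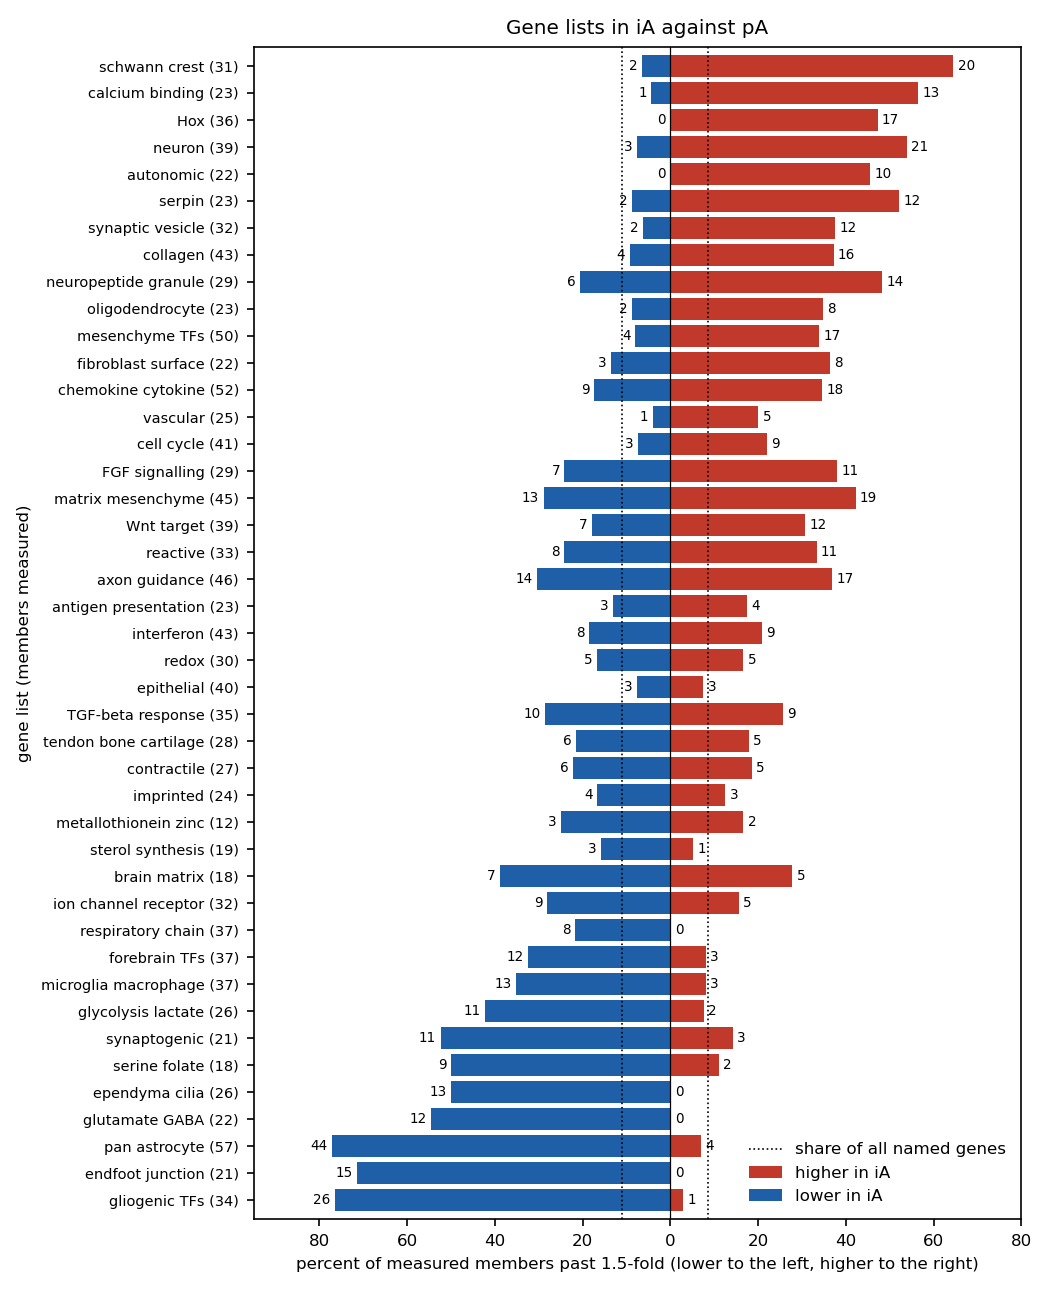
Share of the measured members of each gene list that was at least 1.5-fold higher (red, to the right) or lower (blue, to the left) in iAs than in pAs, with the number of members beside each bar and the number measured in brackets. Dotted lines mark the shares of all named genes, 8.67% higher and 11.1% lower. Gliogenic factors (26 of 34 lower) stand at the bottom and Schwann cell and neural crest genes (20 of 31 higher) at the top.

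Transcription factors of gliogenesis and neural progenitors showed the lists' highest share of lower genes after the general markers, 26 of 34 (76.5%), with 1 higher and a median of -1.43. Rfx4, a factor of neural progenitors and astrocytes, had 5.86 in iAs, 10.599 in pAs and 6.17 in MEFs and was at least 16.1-fold lower. Pou3f3, a POU factor of the developing cortex, had 6.59 in iAs, 11.11 in pAs and 7.66 in MEFs and was at least 22.99-fold lower. Olig1 had 6.74 in iAs, 10.84 in pAs and 7.25 in MEFs and Olig2 6.04 in iAs, 9.92 in pAs and 6.39 in MEFs, 17.1-fold and at least 10.1-fold lower, both being basic helix-loop-helix factors of ventral progenitors and oligodendrocytes. Hey1, a Notch target, had 7.96 in iAs, 11.71 in pAs and 7.87 in MEFs and was 13.4-fold lower, and Npas3, a PAS-domain factor, had 6.63 in iAs, 10.19 in pAs and 5.96 in MEFs and was 11.8-fold lower. Hes1, also a Notch target, was the member against the list at 10.19 in iAs, 8.2001 in pAs and 10.67 in MEFs, 3.97-fold higher in iAs. Sox9, Sox2 and Nfia, picked for their role and not by rank, were lower as well. Sox9, needed to start gliogenesis, had 9.06 in iAs, 12.603 in pAs and 10.33 in MEFs and was 11.7-fold lower, below MEFs as well. Sox2, of neural stem cells and glia, had 10.09 in iAs, 12.21 in pAs and 7.13 in MEFs, 4.34-fold lower but above MEFs, and Nfia had 10.19 in iAs, 11.65 in pAs and 9.82 in MEFs, 2.75-fold lower.

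Among genes of position along the body axis, those of the Hox list that differed were higher in iAs, and most of those of the brain patterning list that differed were lower. Of 36 Hox genes, 17 were higher in iAs (47.2%, against 8.67% of all genes), 0 lower and 19 within 1.5-fold. By cluster, 4 of 9 Hoxa, 8 of 10 Hoxb, 0 of 9 Hoxc and 5 of 8 Hoxd genes were higher. Hoxb9 had 10.99 in iAs, 6.87 in pAs and 9.65 in MEFs and was 17.4-fold higher, and Mir196a-1 on the same chromosome was higher as well. Hoxd8 had 8.97 in iAs, 6.33 in pAs and 8.71 in MEFs and was at least 5.3-fold higher, and Hoxd13, of the limb and tail end, had 7.75 in iAs, 5.36 in pAs and 9.703 in MEFs and was at least 2.26-fold higher. Hoxd3 stood at 8.42 in iAs, 6.16 in pAs and 7.35 in MEFs, at least 3.62-fold higher, Hoxa2 at 7.99 in iAs, 5.94 in pAs and 8.02 in MEFs, at least 2.68-fold higher, and Hoxb3 at 8.45 in iAs, 6.71 in pAs and 8.45 in MEFs, 3.35-fold higher. For 11 of the 17 the MEF level was within 1.5-fold of iAs, for 4 it was above both and for 2 it lay between, so that only Hoxb9 and Hoxd3 were over 1.5-fold above MEFs. Many Hox levels lie near the array median, and over the 36 the median difference was 0.49.

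Of 37 factors that pattern the brain, 12 were lower in iAs and 3 higher. Nr2e1, the orphan receptor Tlx of forebrain stem cells, had 6.298 in iAs, 10.39 in pAs and 6.41 in MEFs and was at least 13.9-fold lower. Emx2, which patterns the cortex, had 5.75 in iAs, 9.399 in pAs and 8.61 in MEFs, at least 7.01-fold lower and below MEFs. Zic2 had 6.75 in iAs, 10.43 in pAs and 7.55 in MEFs and was 12.8-fold lower, Pax6 6.33 in iAs, 9.56 in pAs and 6.22 in MEFs and at least 7.84-fold lower, and Fezf2 6.24 in iAs, 9.41 in pAs and 6.24 in MEFs and at least 7.09-fold lower. Otx1, a factor of the anterior brain, had 7.41 in iAs, 9.94 in pAs and 7.401 in MEFs and was 5.78-fold lower. Dlx2, which is expressed in ventral forebrain and also in the cranial neural crest, was 1 of the 3 higher ones at 10.79 in iAs, 8.66 in pAs and 8.796 in MEFs, 4.38-fold higher. The others were Pax3, a factor of dorsal progenitors and the neural crest, at 7.19 in iAs, 6.26 in pAs and 6.61 in MEFs and at least 1.54-fold higher, and En1, a factor of midbrain and limb, at 7.08 in iAs, 6.38 in pAs and 8.13 in MEFs, picked after its values were seen. The remaining 22 lay within 1.5-fold.

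**Figure D4:**
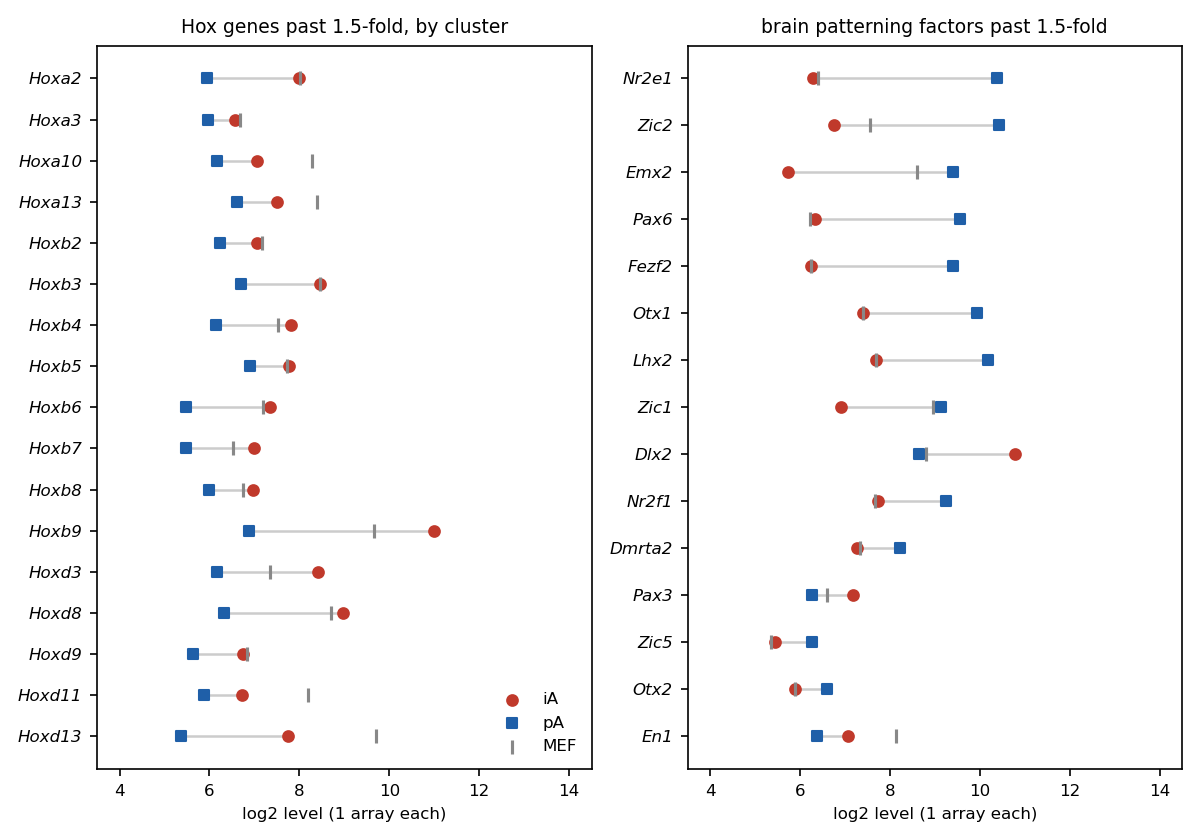
Log2 levels of the 17 Hox genes (left, by cluster and position) and of the 15 brain patterning factors (right, by size of the difference) that differed at least 1.5-fold, in iAs (red circles), pAs (blue squares) and MEFs (grey ticks), 1 array each. Every Hox gene shown has iAs right of pAs, and all but 3 of the brain factors have iAs left of pAs.

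Genes of Schwann cells and the neural crest were the list with the highest share of higher genes, 20 of 31 (64.5%), with 2 lower and a median of 1.43. Scn7a, a sodium channel family member of peripheral glia, had 12.95 in iAs, 5.79 in pAs and 8.33 in MEFs and was at least 83.7-fold higher. Cdh19, a cadherin of Schwann cell precursors, had 12.45 in iAs, 7.004 in pAs and 7.26 in MEFs and was 43.5-fold higher. Ret, the receptor of GDNF family ligands, had 12.06 in iAs, 6.76 in pAs and 7.75 in MEFs and was 39.5-fold higher, and Ngfr, the p75 neurotrophin receptor, had 11.796 in iAs, 6.87 in pAs and 8.56 in MEFs and was 30.4-fold higher. L1cam, an adhesion molecule of axons and Schwann cells, had 12.22 in iAs, 6.84 in pAs and 7.88 in MEFs and was 41.7-fold higher. In pAs these genes, like Sox10 above, lay within about 1 log2 unit of the array median. Erbb3, the neuregulin receptor of Schwann cells, had 11.26 in iAs, 7.07 in pAs and 8.16 in MEFs and was 18.3-fold higher, and Foxd3, an early factor of the crest, had 10.47 in iAs, 7.46 in pAs and 8.25 in MEFs and was 8.1-fold higher. The lower members were Gfra1, a GDNF co-receptor with several probe sets, at 7.898 in iAs, 8.901 in pAs and 8.41 in MEFs, 2.005-fold lower in iAs, and Drp2, a dystrophin-related protein of myelinating Schwann cells, at 8.66 in iAs, 9.31 in pAs and 7.71 in MEFs, 1.57-fold lower. Nrg1, the ligand of ERBB3, which is not a member of the list, had 9.42 in iAs, 12.002 in pAs and 10.73 in MEFs and was 5.997-fold lower. Myelin genes hardly took part, Mbp being at least 1.61-fold higher at 7.26 in iAs, 6.54 in pAs and 6.78 in MEFs, and Mag and Egr2 lying within 1.5-fold. Of the 20 higher genes, 9 had a MEF level between the astrocyte types and over 1.5-fold from both, 5 one within 1.5-fold of pAs, 3 one below both, 2 one within 1.5-fold of both and 1 one within 1.5-fold of iAs. Erbb3, Foxd3, Nrg1 and Mbp were picked here for their roles after the values were seen.

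Neuropeptides and proteins of their granules differed in both directions. Of 29 genes, 14 were higher in iAs and 6 lower. The 14 encode peptides or granins, while the lower ones are Chgb, a granin, Nppc, a natriuretic peptide, and Cpe, Pcsk1n, Scg3 and Scg5, which act in sorting or processing. Vip, vasoactive intestinal peptide, had 12.43 in iAs, 5.87 in pAs and 6.21 in MEFs and was at least 58.2-fold higher. Penk, proenkephalin, had 13.21 in iAs, 6.995 in pAs and 12.01 in MEFs and was 74.4-fold higher than in pAs, with MEFs nearer to iAs. Gal, galanin, had 10.76 in iAs, 6.16 in pAs and 6.53 in MEFs and was at least 18.3-fold higher, Npy, neuropeptide Y, 12.54 in iAs, 7.97 in pAs and 9.06 in MEFs and 23.8-fold higher, and Cck, cholecystokinin, 11.47 in iAs, 7.27 in pAs and 9.27 in MEFs and 18.3-fold higher. Nppb, a natriuretic peptide, had 9.04 in iAs, 5.75 in pAs and 7.29 in MEFs and was at least 5.57-fold higher. Lower in iAs were Scg3, secretogranin III, at 8.66 in iAs, 11.74 in pAs and 5.03 in MEFs and 8.46-fold lower, and Scg5, a chaperone of a prohormone convertase, at 7.64 in iAs, 10.44 in pAs and 5.7999 in MEFs and 6.96-fold lower. Both were higher in iAs than in MEFs even so. For 10 of the 14 higher genes the MEF level was within 1.5-fold of pAs.

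Several peptide genes carry a cyclic AMP response element (CRE), the site bound by CREB, near their start. The letters TGACGTCA were searched on both strands from 250 bases before to 50 after each annotated start, and so was the shorter TGACGT, which is part of them and so overlaps every full match. The short form lay in the windows of 9 of 23 neuropeptide and granule genes with a RefSeq promoter (39.1%), against 1673 of 16990 genes in all (9.85%), 118 of 1452 higher in iAs (8.13%) and 214 of 1916 lower (11.2%). The full element lay in 5 of the 23 and in 450 of the 16990 (2.65%). Of the 9, 6 were higher in iAs, 2 lower and 1 within 1.5-fold, so genes of either direction carry it, and across all genes the higher ones did not carry it more often. The 120 bases just before the start are printed for 5 of the 6 higher genes and for 1 lower one, from RefSeq (GRCm38.p6), 5′ to 3′ on the strand of the gene, because TGACGT sits there in each. The stretches of Cartpt, Scg2, Sst and Chgb hold the full element, and those of Vip and Chga only the short form. The remaining higher gene, Adcyap1, is not printed. Capitals mark the bases that match TGACGT on either strand, and the search was chosen after the values were seen.
Vip: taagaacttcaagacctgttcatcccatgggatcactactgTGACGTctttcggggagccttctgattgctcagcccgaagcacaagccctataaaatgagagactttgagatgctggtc
Cartpt: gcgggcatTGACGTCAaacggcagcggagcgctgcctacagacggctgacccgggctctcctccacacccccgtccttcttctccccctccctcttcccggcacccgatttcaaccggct
Scg2: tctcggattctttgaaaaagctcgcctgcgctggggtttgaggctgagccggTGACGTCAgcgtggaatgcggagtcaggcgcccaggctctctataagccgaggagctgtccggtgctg
Chga: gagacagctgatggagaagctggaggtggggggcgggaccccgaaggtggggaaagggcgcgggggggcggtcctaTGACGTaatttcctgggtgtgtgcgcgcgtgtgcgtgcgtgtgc
Sst: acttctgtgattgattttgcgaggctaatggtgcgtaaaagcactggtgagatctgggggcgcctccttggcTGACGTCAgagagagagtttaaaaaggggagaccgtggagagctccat
Chgb: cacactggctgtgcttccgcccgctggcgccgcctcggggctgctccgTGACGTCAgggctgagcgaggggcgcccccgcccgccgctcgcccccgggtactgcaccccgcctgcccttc
These stretches lie at chr10:5639098-5639217 on the plus strand (Vip), chr13:99900684-99900803 on the minus strand (Cartpt), chr1:79440027-79440146 on the minus strand (Scg2), chr12:102554821-102554940 on the plus strand (Chga), chr16:23890845-23890964 on the minus strand (Sst) and chr2:132781522-132781641 on the plus strand (Chgb).

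Of these promoters, that of Vip belongs to a gene whose values are above. Cartpt, the CART prepropeptide, had 9.97 in iAs, 7.16 in pAs and 6.99 in MEFs and was 7.01-fold higher. Scg2, secretogranin II, had 9.64 in iAs, 7.43 in pAs and 7.34 in MEFs and was 4.63-fold higher, Chga, chromogranin A, 8.98 in iAs, 7.05 in pAs and 7.45 in MEFs and 3.82-fold higher, and Sst, somatostatin, 8.798 in iAs, 7.28 in pAs and 7.64 in MEFs and 2.86-fold higher. Chgb, chromogranin B, had 6.14 in iAs, 7.28 in pAs and 5.67 in MEFs and was at least 1.62-fold lower although its promoter holds the full element. The match of letters is a description and says nothing of binding.

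Transmitter genes of autonomic neurons, a list put together after the values were seen, held 10 of 22 higher and 0 lower. Slc5a7, the choline transporter, had 11.69 in iAs, 5.49 in pAs and 8.302 in MEFs and was at least 34.7-fold higher. Htr3a, a subunit of the ionotropic serotonin receptor, had 12.13 in iAs, 6.55 in pAs and 6.91 in MEFs and was at least 47.4-fold higher, Dbh, which makes noradrenaline, 11.16 in iAs, 5.95 in pAs and 6.24 in MEFs and at least 24.1-fold higher, and Chrna3, a nicotinic receptor subunit of ganglia, 10.72 in iAs, 6.18 in pAs and 6.17 in MEFs and at least 17.8-fold higher. Hand2, a factor of sympathetic and enteric neurons and of limb mesenchyme, had 11.29 in iAs, 6.85 in pAs and 8.42 in MEFs and was 21.8-fold higher. The enzymes Th, Ddc and Chat of the same transmitters lay within 1.5-fold, so the list was not higher as a whole.

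Calcium-binding proteins were higher for 13 of 23 and lower for 1. Calb2, calretinin, had 11.28 in iAs, 5.097 in pAs and 5.36 in MEFs and was at least 26.3-fold higher, and Calb1, calbindin, had 10.06 in iAs, 4.24 in pAs and 4.42 in MEFs and was at least 11.3-fold higher. Scgn, secretagogin, had 9.12 in iAs, 6.09 in pAs and 5.92 in MEFs and was at least 5.87-fold higher. These 3 EF-hand proteins of neurons and endocrine cells were at MEF-like levels in pAs. General neuronal markers were higher for 21 of 39 and lower for 3, with a median of 0.71. Snap25, of the release machinery, had 11.62 in iAs, 6.05 in pAs and 6.597 in MEFs and was at least 33.3-fold higher. Nefl, the light neurofilament, had 8.54 in iAs, 6.13 in pAs and 6.05 in MEFs and was at least 3.94-fold higher, and Crmp1, a protein of growth cones, 9.67 in iAs, 7.58 in pAs and 8.11 in MEFs and 4.28-fold higher. Nsg1 had 10.87 in iAs, 8.35 in pAs and 10.59 in MEFs and was 5.74-fold higher. Tubb3 had 9.19 in iAs, 7.12 in pAs and 9.02 in MEFs and was 4.21-fold higher. In both, MEFs were within 1.5-fold of iAs. Rtn1, a reticulon of neurons, went the other way at 7.64 in iAs, 12.45 in pAs and 7.64 in MEFs, 27.99-fold lower. So did Stmn2, high in both astrocyte types, at 11.12 in iAs, 11.77 in pAs and 8.87 in MEFs, 1.57-fold lower. Rbfox3, which encodes the nuclear marker NeuN, and Dcx and the transporters Slc17a6 and Slc17a7 lay within 1.5-fold. Among synaptic vesicle genes 12 of 32 were higher and 2 lower, Vamp1, a vesicle protein of fusion, standing at 11.38 in iAs, 8.35 in pAs and 7.35 in MEFs, 8.2-fold higher, and Sv2a, a vesicle glycoprotein, at 7.41 in iAs, 8.97 in pAs and 6.68 in MEFs, 2.96-fold lower.

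**Figure D5:**
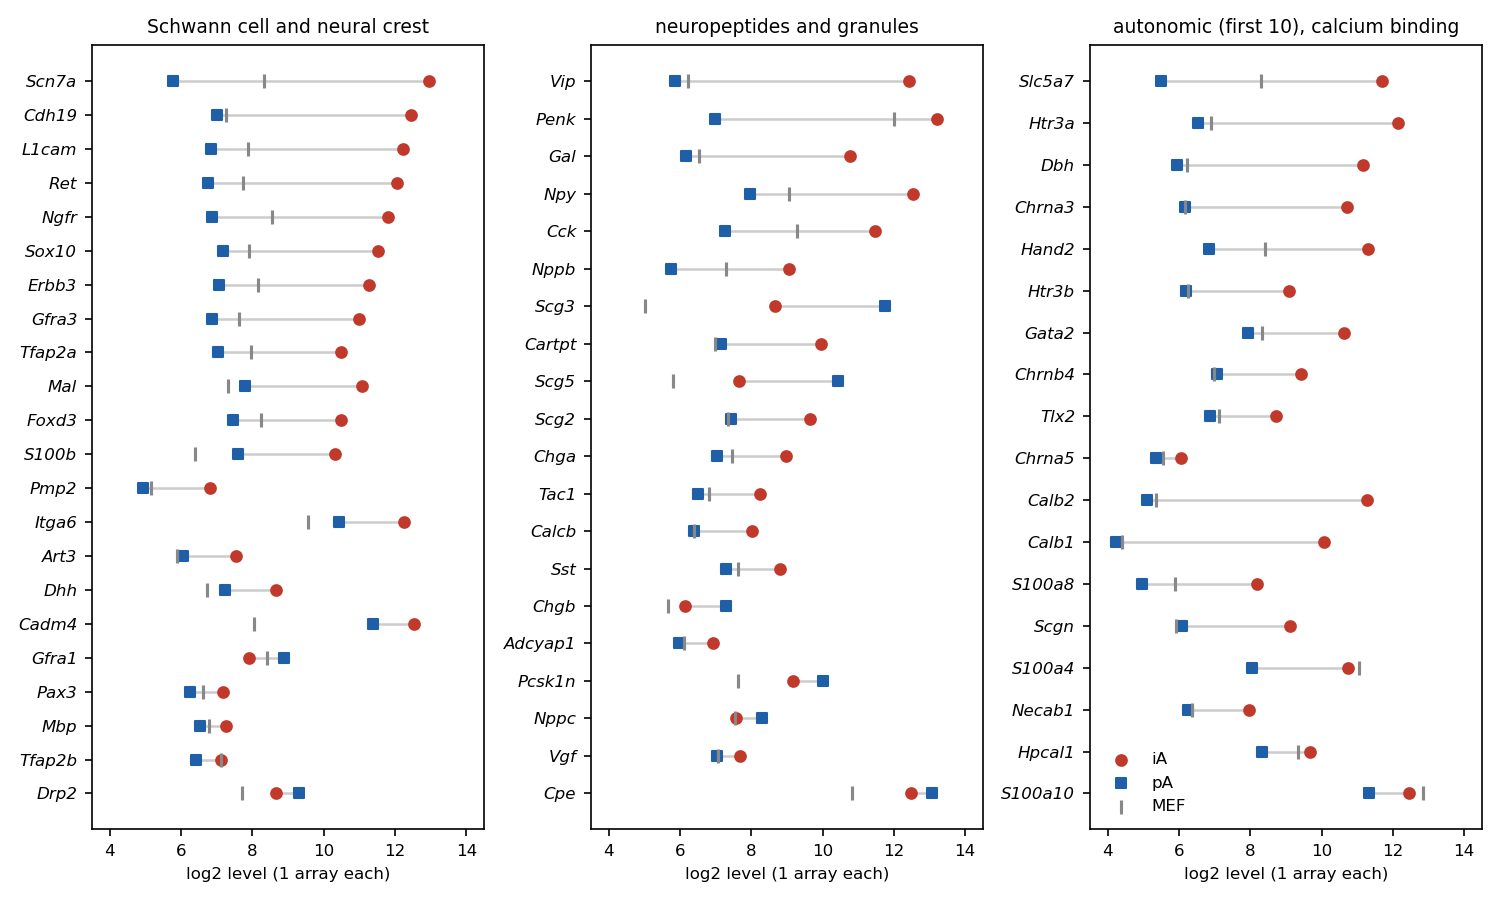
Log2 levels of the genes that differed at least 1.5-fold in 4 lists, in iAs (red circles), pAs (blue squares) and MEFs (grey ticks), 1 array each, ordered by size of the difference. The left panel holds 22 Schwann cell and neural crest genes, the middle panel 20 neuropeptide and granule genes and the right panel the 10 autonomic genes followed by 8 calcium-binding genes. Most iA circles lie right of both other symbols. Scg3 and Scg5 are the largest exceptions.

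Matrix genes did not share one direction. Collagen genes were higher for 16 of 43 and lower for 4. Col14a1, a collagen that binds fibrils, had 12.34 in iAs, 6.05 in pAs and 8.87 in MEFs and was at least 54.6-fold higher than in pAs. Col28a1, known from peripheral nerve, had 9.13 in iAs, 5.48 in pAs and 6.596 in MEFs and was at least 5.91-fold higher. Col6a1 had 11.29 in iAs, 7.77 in pAs and 11.15 in MEFs and was 11.5-fold higher, with MEFs close to iAs, and has several probe sets. Col1a1, the main fibrillar chain, had 10.61 in iAs, 8.41 in pAs and 13.06 in MEFs, so that iAs lay 4.59-fold above pAs and well below MEFs, and its partner Col1a2 lay within 1.5-fold between the astrocyte types. Col11a1 had 6.39 in iAs, 8.48 in pAs and 8.51 in MEFs and was at least 3.7-fold lower. Of the 16 higher genes, 9 had a MEF level between the astrocyte types and 4 one above both.

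Other matrix proteins of mesenchyme were split, 19 of 45 higher and 13 lower. Postn, periostin, had 12.01 in iAs, 6.29 in pAs and 13.25 in MEFs and was at least 43.6-fold higher, with the MEF level above both. Fbln2, a fibulin, had 11.399 in iAs, 6.88 in pAs and 12.71 in MEFs and was higher by 4.52 on the log2 scale, and Lox, which cross-links collagen, 12.26 in iAs, 8.68 in pAs and 13.56 in MEFs and 11.9-fold higher. In the other direction, Igfbp5, which binds insulin-like growth factors, had 8.24 in iAs, 13.67 in pAs and 11.52 in MEFs and was 43.4-fold lower, and Omd, a small leucine-rich proteoglycan, had 5.29 in iAs, 10.35 in pAs and 7.13 in MEFs and was at least 13.6-fold lower. Ogn, another proteoglycan of that family, had 7.86 in iAs, 12.45 in pAs and 12.08 in MEFs and was 24.2-fold lower, and Dcn, decorin, 7.98 in iAs, 9.91 in pAs and 12.96 in MEFs and 3.83-fold lower, both picked after their values were seen. Matrix proteins of brain were lower for 7 of 18 and higher for 5. Ncan, neurocan, had 7.18 in iAs, 11.11 in pAs and 7.12 in MEFs and was 15.2-fold lower, Ptprz1, a receptor phosphatase that is shed as a proteoglycan, 8.58 in iAs, 12.01 in pAs and 8.46 in MEFs and 10.8-fold lower, and Bcan, brevican, 6.97 in iAs, 10.01 in pAs and 6.41 in MEFs and 8.21-fold lower. Has2, which makes hyaluronan, had 10.13 in iAs, 5.77 in pAs and 11.5004 in MEFs and was at least 11.8-fold higher, and Cspg4, the NG2 proteoglycan, had 10.72 in iAs, 7.5999 in pAs and 9.82 in MEFs and was 8.68-fold higher.

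Factors of mesenchyme were higher for 17 of 50 and lower for 4. Tbx3, a T-box factor of limbs, had 11.27 in iAs, 6.99 in pAs and 9.56 in MEFs and was 19.4-fold higher. Ebf1 had 7.85 in iAs, 5.597 in pAs and 10.92 in MEFs and was at least 2.43-fold higher, and Twist2 7.57 in iAs, 5.71 in pAs and 10.42 in MEFs and at least 2.01-fold higher, both still far under MEFs. Foxc1, a factor of meninges and vessel walls, had 7.56 in iAs, 8.81 in pAs and 8.82 in MEFs and was 2.38-fold lower. Of 22 fibroblast surface and general genes 8 were higher and 3 lower, among them Eng, the endoglin co-receptor, at 12.74 in iAs, 7.87 in pAs and 9.88 in MEFs and 29.2-fold higher, and Pdgfra, a platelet-derived growth factor receptor of fibroblasts and oligodendrocyte precursors, at 10.56 in iAs, 7.07 in pAs and 12.13 in MEFs and 11.2-fold higher. Contractile genes of smooth muscle were split, 5 of 27 higher and 6 lower. Cnn1, calponin, had 7.23 in iAs, 11.93 in pAs and 11.32 in MEFs and was 26.03-fold lower, Tagln, transgelin, 9.199 in iAs, 11.67 in pAs and 12.32 in MEFs and 5.55-fold lower, and Acta2, smooth muscle actin, 11.42 in iAs, 13.02 in pAs and 13.67 in MEFs and 3.03-fold lower, while Des, desmin, had 8.45 in iAs, 6.28 in pAs and 10.58 in MEFs and was at least 3.7-fold higher. The 3 lower genes stood nearer to MEFs in pAs than in iAs.

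Of 23 serpins, inhibitors of proteases, 12 were higher and 2 lower. Serpinb9e had 12.19 in iAs, 4.77 in pAs and 4.601 in MEFs and was at least 49.4-fold higher. Serpinb2, an inhibitor of plasminogen activators, had 11.06 in iAs, 5.42 in pAs and 6.22 in MEFs and was at least 22.5-fold higher. Serpinb9f had 9.43 in iAs, 5.85 in pAs and 5.93 in MEFs, at least 7.27-fold higher, and Serpinb9b 9.07 in iAs, 6.29 in pAs and 7.92 in MEFs, at least 5.67-fold higher, while Serpinb9 itself, which inhibits granzyme B, lay within 1.5-fold. The Serpinb9 genes are close copies, so their probe sets may share signal and their values are not independent. Serpinf1, which encodes pigment epithelium-derived factor, stood at 10.44 in iAs, 11.12 in pAs and 10.99 in MEFs, 1.6-fold lower.

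Of 52 chemokines, cytokines and growth factors, 18 were higher in iAs and 9 lower. Cxcl5, which attracts neutrophils, had 12.81 in iAs, 8.17 in pAs and 10.39 in MEFs and was 24.9-fold higher, Cxcl2 11.15 in iAs, 7.27 in pAs and 8.19 in MEFs and 14.7-fold higher, and Cxcl1 10.82 in iAs, 7.11 in pAs and 8.92 in MEFs and 13.04-fold higher. Angptl4, an inhibitor of lipoprotein lipase, had 11.52 in iAs, 6.498 in pAs and 8.47 in MEFs and was at least 30.9-fold higher, and Fgf7 had 10.47 in iAs, 6.76 in pAs and 10.39 in MEFs and was 13.1-fold higher. Cxcl14 went the other way at 8.75 in iAs, 11.403 in pAs and 12.08 in MEFs, 6.27-fold lower, as did Ptn, pleiotrophin, at 7.06 in iAs, 9.67 in pAs and 11.65 in MEFs and 6.11-fold lower. Genes of reactive astrocytes were split, 11 of 33 higher and 8 lower. Ptgs2, the inducible cyclooxygenase, had 12.03 in iAs, 9.02 in pAs and 11.78 in MEFs and was 8.1-fold higher, and Timp1, an inhibitor of metalloproteinases, 12.56 in iAs, 9.57 in pAs and 12.896 in MEFs and 7.96-fold higher. Steap4, a metalloreductase, had 6.55 in iAs, 12.38 in pAs and 8.55 in MEFs and was at least 55.3-fold lower, and Lcn2, lipocalin 2, 10.99 in iAs, 13.04 in pAs and 8.25 in MEFs and 4.16-fold lower. Interferon response genes were balanced at 9 of 43 higher and 8 lower, and so was antigen presentation at 4 of 23 and 3.

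Receptors and ligands of development differed within each pathway in both directions. For FGF signalling 11 of 29 were higher and 7 lower. Fgfr2 had 5.73 in iAs, 11.699 in pAs and 9.95 in MEFs and was at least 34.5-fold lower, and Fgfr3, a receptor of astrocytes, 6.25 in iAs, 9.37 in pAs and 6.52 in MEFs and at least 6.85-fold lower. Feedback genes of the same pathway were higher, Dusp4, a phosphatase of ERK, at 10.64 in iAs, 8.43 in pAs and 9.29 in MEFs and 4.63-fold higher and Spry1 at 10.33 in iAs, 8.41 in pAs and 10.03 in MEFs and 3.79-fold higher. The medium of the induction, not that of the pAs, contained FGF, a difference of culture that cannot be told apart from the cell type. For Wnt genes 12 of 39 were higher and 7 lower. Nkd2, a feedback inhibitor, had 11.86 in iAs, 6.79 in pAs and 9.91 in MEFs and was 33.4-fold higher, and Apcdd1, another inhibitor, 10.76 in iAs, 6.86 in pAs and 10.01 in MEFs and 14.97-fold higher, while Axin2, a general target, lay within 1.5-fold. Among TGF-beta genes 9 of 35 were higher and 10 lower, Mmp2, a metalloproteinase, standing at 12.59 in iAs, 8.93 in pAs and 12.68 in MEFs, 12.6-fold higher, and Ltbp2, a binding protein of the latent ligand family, at 9.15 in iAs, 10.77 in pAs and 11.45 in MEFs, 3.07-fold lower. Bmp6, a ligand among the 15 most negative differences, had 6.77 in iAs, 12.504 in pAs and 7.21 in MEFs and was 53.1-fold lower. Axon guidance was split at 17 of 46 higher and 14 lower, Plxnb3, a semaphorin receptor of glia, having 10.04 in iAs, 6.06 in pAs and 6.85 in MEFs, at least 11.1-fold higher, and Epha4 7.55 in iAs, 10.66 in pAs and 8.79 in MEFs, 8.66-fold lower.

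Some of the most extreme differences fell outside the lists. Pnpla3, a lipase of lipid droplets, had 12.38 in iAs, 6.63 in pAs and 7.04 in MEFs and was 54.01-fold higher. Adh7, an alcohol and retinol dehydrogenase, had 12.03 in iAs, 5.93 in pAs and 9.12 in MEFs and was at least 44.01-fold higher. Slitrk6, an adhesion protein of sensory ganglia and inner ear, had 11.36 in iAs, 5.63 in pAs and 7.97 in MEFs and was at least 27.8-fold higher, and Ms4a4d had 11.097 in iAs, 5.42 in pAs and 8.18 in MEFs and was at least 23.1-fold higher. In all 4 the pA level was near or under the median of its array. Lower in iAs were Gpm6a, a membrane glycoprotein of neurons and glia, at 6.74 in iAs, 12.76 in pAs and 8.93 in MEFs and 64.8-fold lower, Slco1a4, an organic anion transporter, at 4.97 in iAs, 11.22 in pAs and 4.67 in MEFs and at least 24.8-fold lower, and Scrg1 at 6.71 in iAs, 12.43 in pAs and 7.22 in MEFs and 52.6-fold lower. Mal2, a protein of membrane sorting, had 6.67 in iAs, 12.12 in pAs and 7.76 in MEFs and was 43.6-fold lower. These 4 were near or under the median in iAs instead.

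Markers of other cells that each culture could hold moved as well, and their part in the results was not tested. Of 37 genes of microglia and macrophages 13 were lower in iAs and 3 higher, with 21 above the array median in iAs, 30 in pAs and 30 in MEFs. Tyrobp, a signalling adaptor of microglia, had 6.39 in iAs, 8.88 in pAs and 9.08 in MEFs and was at least 4.88-fold lower, and Fcer1g, its relative, 6.78 in iAs, 9.47 in pAs and 10.04 in MEFs and 6.43-fold lower. Ccl3 (at least 5.84-fold), Mpeg1 (at least 2.91-fold), Sall1 (4.44-fold) and C1qb (4.31-fold) were lower as well. Fcgr2b was 9.4-fold and Cd53 3.3-fold higher. Other members, Aif1, Cx3cr1, Csf1r, Itgam and P2ry12 among them, lay within 1.5-fold between the astrocyte types, so the list did not share a direction. Genes of ependyma and motile cilia were lower for 13 of 26 and higher for 0, with 7 above the array median in iAs, 17 in pAs and 6 in MEFs. Foxj1, the master factor of motile cilia, had 6.93 in iAs, 10.06 in pAs and 6.52 in MEFs and was 8.73-fold lower, and Rsph4a, of the ciliary radial spoke, 5.11 in iAs, 8.07 in pAs and 5.39 in MEFs and at least 2.79-fold lower. Genes of endothelium and vessel walls were higher for 5 of 25 and lower for 1. Rgs5, a marker of pericytes with several probe sets, had 10.52 in iAs, 5.96 in pAs and 6.42 in MEFs and was at least 15.5-fold higher. Other members did not share a direction. Ly6c1 was at least 6.72-fold, Kdr 2.54-fold and Flt1 2.36-fold higher, Cdh5 was 2.46-fold lower, and Pecam1 and Cldn5 lay within 1.5-fold. Oligodendrocyte genes were higher for 8 of 23 and lower for 2. The lower ones were the lineage factors Olig1 (17.1-fold) and Olig2 (at least 10.1-fold). Sox10, Pdgfra and Cspg4, among the higher ones, are also counted in other lists, so this list did not share a direction. Gjc3, a connexin of oligodendrocytes and Schwann cells, had 10.12 in iAs, 5.62 in pAs and 6.696 in MEFs and was at least 11.7-fold higher, and the myelin genes Mog, Mobp and Cnp lay within 1.5-fold. The epithelial list was at 3 of 40 (7.5%) in each direction, under the shares of all genes (8.67% higher, 11.1% lower).

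Lists of general cell functions had medians within 1.5-fold, though some of their shares exceeded those of all genes (8.67% higher, 11.1% lower). Cell cycle genes were higher for 9 of 41 and lower for 3, with a median of 0.22. Mki67, a marker of dividing cells, had 7.19 in iAs, 6.48 in pAs and 10.55 in MEFs, at least 1.54-fold higher in iAs and far below MEFs. Respiratory chain subunits were lower for 8 of 37 (21.6%) and higher for 0, with a median of -0.31. All 8 were lower by less than 2-fold except Ndufa1 at 7.54 in iAs, 8.65 in pAs and 8.195 in MEFs, 2.17-fold lower. Redox genes were at 5 of 30 in each direction, Nqo1, a quinone reductase, having 11.45 in iAs, 9.27 in pAs and 8.88 in MEFs, 4.55-fold higher. Sterol synthesis genes were nearly level, 1 of 19 higher and 3 lower, and imprinted genes had 3 of 24 higher, Grb10 at 11.37 in iAs, 8.19 in pAs and 11.997 in MEFs being 9.12-fold higher, and 4 lower.

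Genes that tell the sexes apart differed between the arrays. Xist, the RNA that silences an X chromosome in female cells, had 6.64 in iAs, 11.45 in pAs and 11.79 in MEFs and was 28.1-fold lower than in pAs. The Y-linked genes Eif2s3y, at 9.94 in iAs, 8.54 in pAs and 5.51 in MEFs, and Uty, at 8.99 in iAs, 7.78 in pAs and 4.77 in MEFs, were 2.64-fold and 2.32-fold higher in iAs, and Kdm5d, at 8.06 in iAs, 7.25 in pAs and 4.26 in MEFs, was 1.76-fold higher. On the iA array these Y-linked genes were above the array median and Xist was close to it (6.64 against 6.59), on the pA array all were above it, and on the MEF array Xist was above it and the Y-linked genes below. The sources used here do not give the sex of the animals. Of 905 X-linked genes 55 were higher (6.08%) and 107 lower (11.8%) in iAs, near the shares of all genes (8.67% and 11.1%). By these genes the iA array had the pattern of male cells, the MEF array that of female cells and the pA array that of both sexes together. The MEF array thus differs from the iA array in this pattern too, which limits its use as the starting point of the iAs. For other genes, an effect of sex and one of cell type cannot be told apart on single arrays.

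Set against the MEF array, the genes higher in iAs and those lower in iAs took different positions. Of the 2458 lower genes the MEF level was within 1.5-fold of iAs for 1214 (49.4%), within 1.5-fold of pAs for 393, within 1.5-fold of both for 297 (12.1%), below both for 260 (10.6%), between and over 1.5-fold from both for 168 (6.83%) and above both for 126 (5.13%). Of the 1923 higher genes the MEF level was within 1.5-fold of iAs for 475 (24.7%), within 1.5-fold of pAs for 601 (31.3%), within 1.5-fold of both for 229 (11.9%), below both for 134 (6.97%), between for 240 (12.5%) and above both for 244 (12.7%). Genes such as Kcnj10, Mlc1 and Pax6 are of the first kind, with iAs at the level of the fibroblasts, and Vip, Cdh19 and Calb2 are among those that neither pAs nor MEFs shared. Postn and Col1a1 are among those higher in iAs than in pAs with MEFs above both. These positions use the same 2 astrocyte arrays as the counts.

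The precision of a difference between the cell types cannot be read from 1 array each. Genes with several probe sets show only how far probe sets agree on the same arrays and RNA. Of such genes, 198 were past 1.5-fold (92 higher, 106 lower). All probe sets passed in the same direction for 48 of the higher and 42 of the lower, and all had the same sign in 158. Among all 1082 genes with several probe sets, past the fold or not, 7 had probe sets past it in opposite directions. Of the 1923 higher genes, 414 had a pA level under its array's median and 164 were under the median on both arrays, and of the 2458 lower genes 483 had an iA level under the median and 96 were under it on both. For genes under the median on both arrays no fold is given.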

How the data were processed

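RNA of iAs, pAs and MEFs was hybridised to Affymetrix Mouse Gene 2.0 ST arrays, 1 per cell type. The values deposited by the authors are on the log2 scale, 1 per probe set, normalized by RMA in Partek Genomics Suite with no version given in the sources used here, and the submitters' processing notes also name MAS5. Raw intensities were not used here. By the platform annotation from GEO, 23521 of the 41345 probe sets have a single gene symbol, 1820 several and 16004 none, and those with a single one name a gene. The log2 values of the 1082 genes with several probe sets were averaged, and iA minus pA was taken on the values as deposited, with Python 3.11.15, numpy 2.4.6 and pandas 2.3.3. On 26.2% of genes both arrays hold the same value. The number of arrays limits the precision. No test, p-value or interval is given, since there is 1 array per group.

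The members and the 44 gene lists, of textbook genes, were chosen with earlier results of these data known. In them 1243 of 1334 genes had a probe set with that symbol alone. Genes named are 6 markers, the 15 most positive and 15 most negative differences among genes whose higher level reached its array's median (placeholder symbols passed over), up to 6 members of each list described with the largest differences in its more frequent direction and up to 2 against it, Gfap, Xist and Y-linked genes. Genes outside this rule, named as picked later or for their role (the miRNA genes, those printed with a promoter, Col1a1, Hoxb3, Lcn2 and Mki67 among them), were chosen after their values were seen. Sequences are from RefSeq tables (GRCm38.p6). The computation was tested on simulated data. Alternatives were quantile normalization of the 2 arrays, an offset of 32 before taking log2, centring on brighter probe sets, the brightest probe set, a fold of 2, a filter on dim genes and all probe sets.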

Additional observations from a re-analysis of the deposited data

How the results depend on the processing

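No paired analysis was possible because each cell type has 1 array. Replicates could not be left out for the same reason. The counts of 1923 higher and 2458 lower genes stayed within 1.5 times under quantile normalization of the 2 arrays (1990 and 2328), centring on brighter probe sets (2171 and 2173), an offset of 32 (1656 and 2145), the brightest probe set (1968 and 2500) and the filter on dim genes (1759 and 2362). Centring moved the median of all genes by 0.07 and brought the 2 counts level. They moved to 1105 and 1284 at a fold of 2 and to 3541 and 4137 over all probe sets, where more features are counted. List medians past 1.5-fold kept their sign under each alternative. Those at or near 0 took signs that depended on the scaling, for example brain matrix (0.00, against -0.03 under quantile normalization and 0.07 when centred), axon guidance (0.00, -0.01 and 0.07) and sterol synthesis (-0.01, 0.04 and 0.055). With an offset the Schwann cell and neural crest median was 1.15. The filter, which leaves out dim members, moved 8 medians: Hox to 0.89, Schwann cell and neural crest to 1.82, neuropeptides to 1.58, oligodendrocyte to 0.71, ependyma and cilia to -1.58, sex-linked to 0.81, serpins to 1.003 and autonomic to 1.14. Of 306 genes named by the rule, all past 1.5-fold, 302 stayed past it in the same direction under quantile normalization, 298 under centring, 299 with the offset and 305 with the brightest probe set, and 0 changed sign. Their sizes moved by more than 0.25 on the log2 scale for 137 with the offset, for 8 with the brightest probe set and for 0 under the other 2. Levels under an array's median carry no detection call.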

Other observations

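Of the 16004 probe sets with no gene symbol, 1256 were higher in iAs by 1.5-fold or more and 1349 lower. A block of 5333 of them stands before the first named probe set in the order of the probe set numbers, and it held 690 of the higher and 815 of the lower ones, against 566 and 534 among the other 10671. The block's median level was 5.74 in iAs, 5.78 in pAs and 5.36 in MEFs, under the median of all probe sets on each array. The 1820 probe sets with several symbols held 213 higher and 163 lower, and no gene is named from them.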
